A study of Solanum lycopersicum and Arabidopsis thaliana and Cannabis sativa with 28 samples.

Results

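The H3K4me3 domains of tomato seedlings are the regions that the authors' domain caller, epic2, listed when reads from immunoprecipitation of H3K4me3 were set against an IgG control. All 18758 domains of the deposited tomato H3K4me3 table were taken, out of 52544 domains in the 3 domain tables of the series. They were obtained with PHILO ChIP-seq, a plant ChIP-seq platform built for many samples and little starting material, from untreated whole seedlings of the dwarf tomato variety Micro-Tom at an age of 2 weeks. Libraries of 3 replicates with anti-H3K4me3 and of 3 replicates with IgG, an antibody preparation without a defined chromatin target, were merged by the authors within each group before domains were called. Each domain therefore carries 1 pooled H3K4me3 read count and 1 pooled IgG read count. The spread between replicates cannot be given, no test was made, and every difference below describes these pooled libraries. The sources name the fragmentation of the chromatin differently, with sonication in the extraction protocol of the sample records and MNase in the text of the study. The series also holds a tomato H3K9ac table, in which libraries of seedlings treated with jasmonic acid (JA) for 2 h were set against untreated ones, and a hemp H3K4me3 table.

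H3K4me3 is the trimethylated form of lysine 4 of histone H3. In plants it is written mainly by methyltransferases of the Trithorax family and sits on the nucleosomes that follow the transcription start of active genes, so that a typical domain covers the beginning of a gene. Tomato chromosomes have gene-rich euchromatin toward their ends and long, gene-poor and repeat-rich heterochromatin around the centromere, and the short arm of chromosome 2 carries the ribosomal RNA genes. A whole seedling mixes many cell types, and a mark carried by few cells cannot be told apart from a weak mark in many. A genome and gene annotation of the assembly used by the authors, SLM_r2.0.pmol, were not used here, so domains are given by their position in that assembly and not by gene or sequence.

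The domains together covered 38.0 Mb, which was 4.92% of the 773 Mb between the first and the last listed domain of the 12 chromosomes, and held 5337518 H3K4me3 reads and 893709 IgG reads. A domain held a median of 280 H3K4me3 reads and 34 IgG reads. Enrichment is the log2 of H3K4me3 reads over IgG reads, each with a pseudocount of 1 and not scaled for depth. Its median was 2.88 with quartiles of 2.05 and 3.39. Scaling by uniquely aligned reads shifts every value by -0.67 and leaves the order of the domains in place. Other ways of scaling may shift the values differently, also upward. By the authors' own fold change, the paper counts more tomato domains at a log2 value of at least 1 than the unscaled or the scaled reads give here. A log2 ratio of at least 1 was reached by 16929 domains (90.2% of all domains) and a log2 ratio of at least 2 by 14285 (76.2%). IgG was the control in the listing itself, so that these shares describe the table and are no finding about it. Nearest to the fold, a domain on chromosome 1 (5809400 to 5809999) with 25 H3K4me3 and 12 IgG reads lay inside at 1.00, and a domain on chromosome 6 (47403600 to 47407599) with 186 and 93 reads lay outside at 0.99.

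Chromosome 1 held the most domains with 2785, followed by chromosome 3 with 2266. Chromosome 2 held the fewest with 773. Per Mb of span, chromosomes 6 and 3 were the most densely covered with 34.2 and 33.9 domains, while chromosomes 11, 5 and 2 had 18.4, 18.9 and 18.97. The other chromosomes held between 1032 and 1700 domains. In contrast to their number, the domains themselves were much alike on all chromosomes. The median H3K4me3 level ranged from 140 reads per kb on chromosome 8 to 149 on chromosome 12, the median IgG level from 18.8 on chromosome 12 to 20.01 on chromosome 2, and the median log2 ratio from 2.81 on chromosome 2 to 2.94 on chromosome 4. The median size was 1599 bp on chromosomes 2, 11 and 12 and 1799 bp on the other 9. These ranges are small beside the quartiles within any chromosome, which lay at 2.10 and 3.39 on the log2 scale on chromosome 3, for example.

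Along the chromosomes, the domains were gathered toward the ends. The outer 20% of the span at each end, 40% of the span in all, held 14851 domains, or 79.2% (95% Wilson interval 78.6 to 79.7%). This interval treats domains as independent, and single chromosomes ranged more widely, from 69.5% on chromosome 2 to 84.9% on chromosome 7. The start of the numbered sequence held 30.04% of all domains and its end 49.1%, but the balance differed from chromosome to chromosome. On chromosome 1, 15.4% lay in the first 20% of the span and 64.1% in the last 20%. Chromosome 11 was the mirror image, with 64.7% in the first and 12.7% in the last 20%. Chromosomes 4, 9 and 12 were filled from both ends, with 34.8% and 46.1%, 34.9% and 45.6%, and 43.2% and 39.9% in the first and the last 20%.

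**Figure D1:**
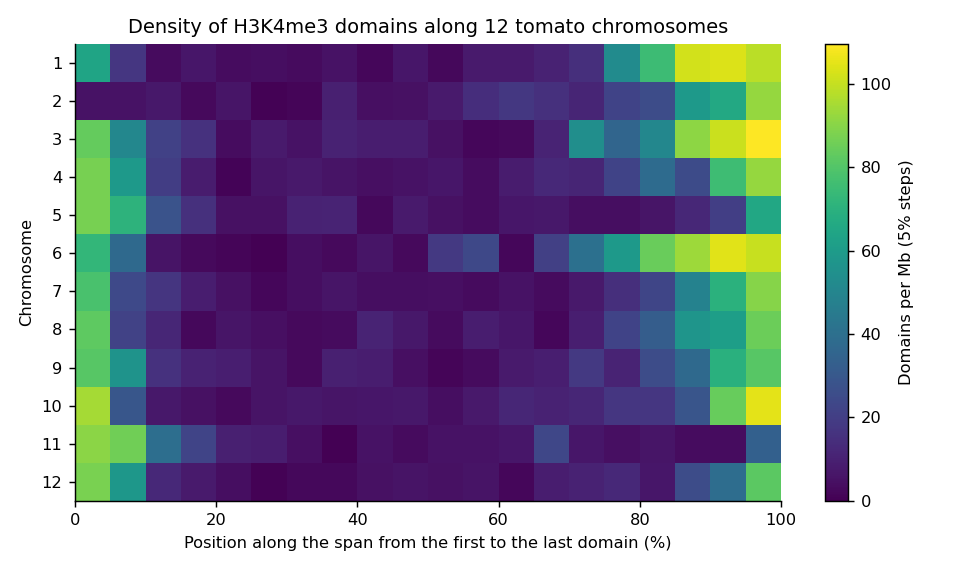
Domains per Mb in 5% steps of the span from the first to the last listed domain (x axis) for each of the 12 chromosomes (y axis), with the density as color. Dense steps lie at the ends of the span, at only 1 end on chromosomes 2 and 11, and the steps between them hold few domains.

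Chromosome 2 departed from this shape at its beginning. Its first listed domain started at 15217800, whereas the first domain of every other chromosome started between 25200 on chromosome 6 and 1481600 on chromosome 7. The first 20% of its span held only 5.43% of its domains and the last 20% held 64.0%, so that this chromosome, like chromosome 11 from its other side, was dense at 1 end only. Whether sequence before the first domain was searched by the caller was not tested.

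In bins of 1 Mb the same contrast appeared as a large difference in number. Of 783 bins, 41 (5.24%) held no domain, and 395 (50.4%, the empty ones included) held fewer than 10 and are called sparse here. In contrast, 151 bins (19.3%) with 50 or more domains, called dense, held 12141 domains, or 64.7% of all. At the same time, 50% of the domains fell into 106 bins (13.5%). The median bin held 9 domains. The densest was the bin from 44 to 45 Mb of chromosome 6 with 117 domains, which covered 25.6% of its length. It was followed by the bins from 64 to 65 and from 65 to 66 Mb of chromosome 3 with 114 each, from 93 to 94 Mb of chromosome 1 with 112 and from 85 to 86 Mb of chromosome 1 with 110. The bin at 93 Mb of chromosome 1 was the most covered of these 5, at 31.3% of its length.

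Although they differed in number, domains of sparse and dense regions carried almost the same H3K4me3 level. The median was 145 H3K4me3 reads per kb in sparse bins (1611 domains), 142 in intermediate bins (5006 domains) and 145 in dense bins. Domains were somewhat shorter where they were rare, with a median of 1399 bp in sparse, 1599 bp in intermediate and 1799 bp in dense bins. The median log2 ratio was 2.74 in sparse, 2.81 in intermediate and 2.91 in dense bins, a difference of 0.17 between dense and sparse. The IgG level moved in the opposite direction, as its median was 20.1 reads per kb in sparse and 19.01 in dense bins. When domains of 50 or more IgG reads per kb, described further on, were left out, the medians were 2.82 in sparse and 2.92 in dense bins. Over all domains, the lower quartile of the log2 ratio differed more than the median, with 1.57 in sparse against 2.20 in dense bins. These quartiles include the domains of 50 or more IgG reads per kb, which made up 6.70% of the domains in sparse and 0.62% in dense bins. How far the quartiles differ without them was not tested.

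Neighboring domains were separated by a median gap of 9001 bp, with quartiles of 4201 and 21401 bp over 18746 gaps. No gap was shorter than 801 bp, since the caller joins nearby windows into 1 domain. Above that limit, gaps of 1 to 2 kb were the most frequent class with 1474 gaps (7.86%). At the other extreme, 1403 gaps (7.48%) were 100 kb or longer and made up 63.0% of the span. The median distance to the nearest neighbor was 4001 bp in dense, 9401 bp in intermediate and 37201 bp in sparse bins. The longest gap extended over 4.50 Mb of chromosome 11 (18711199 to 23207600). The next were 4.10 Mb of chromosome 6 (11443799 to 15539600), 2.91 Mb of chromosome 8 (10393599 to 13303600), 2.71 Mb of chromosome 11 (50301199 to 53012800) and 2.57 Mb of chromosome 1 (37473199 to 40045400). The gap at 50 Mb of chromosome 11 lay at 88.8% of its span, in the end of the chromosome that held few domains.

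**Figure D2:**
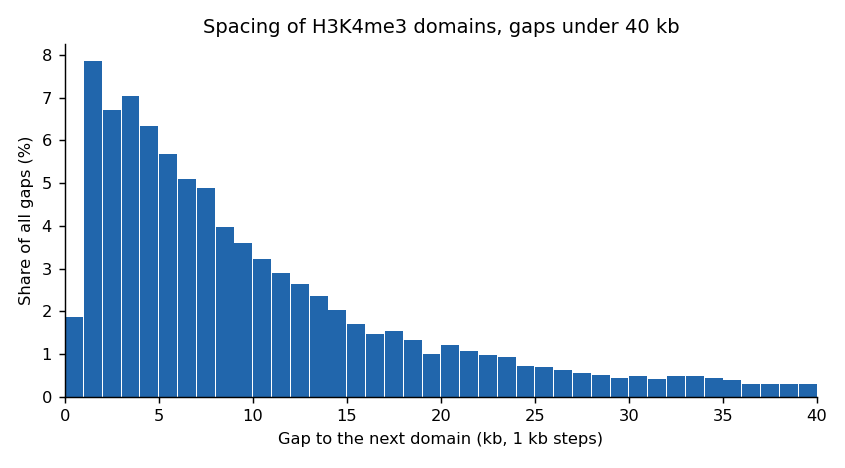
Share of all 18746 gaps (y axis, percent) by the length of the gap in steps of 1 kb (x axis), shown for gaps under 40 kb. Gaps of 1 to 2 kb form the highest bar at 7.86%, and the bars fall off from there apart from small rises, such as at 3 to 4 kb. The lowest step is cut by the shortest gap of 801 bp.

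Domains close to another domain carried less H3K4me3 per kb. In the 3393 domains with a neighbor within 2 kb the median was 128 H3K4me3 reads per kb, and it was 143 at a nearest gap of 2 to 5 kb (5693 domains) and 151 at 5 to 20 kb (7140 domains). Domains at 20 to 100 kb and at 100 kb or more from the next one, 1969 and 563 in number, stayed at 151 and 153. The log2 ratio did not follow this order to the end. It was 2.71 within 2 kb, 2.96 at 5 to 20 kb, and 2.87 and 2.79 in the 2 most isolated classes, in which the median IgG level was also higher (20.01 and 21.0 reads per kb against 19.1 at 5 to 20 kb). The share of domains with 50 or more IgG reads per kb was 1.27% at 5 to 20 kb and 9.06% at 100 kb or more.

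The members of a pair of neighbors were hardly alike in enrichment. The Spearman correlation of their log2 ratios was 0.013 at gaps under 2 kb and at most 0.061, at 20 to 100 kb. Pairs of domains that are not neighbors were not compared. At gaps under 2 kb the median difference in log2 ratio between the members of 1824 pairs was 0.98, and the weaker member had a median of 2.01 and the stronger 3.17. At 5 to 20 kb (8140 pairs) the corresponding values were 0.83, 2.43 and 3.33, and at 100 kb or more (1403 pairs) they were 1.08, 1.90 and 3.26, so that the difference had no steady order with distance.

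When neighbors with gaps of up to 5 kb were joined into runs, 9086 domains (48.4%) fell into 3499 runs with more than 1 domain, of which 2252 were pairs. Runs of at least 5 domains were found 199 times and held 1175 domains (6.26%). The longest run had 12 domains on chromosome 3 (66260600 to 66322399), with 3803 H3K4me3 and 566 IgG reads, and domains covered 45.3% of its 61799 bp. Runs of 10 domains lay on chromosome 1 at 86616200 to 86664999 and at 90912400 to 90955199, and on chromosome 3 at 3231600 to 3281399. A run of 9 domains lay on chromosome 1 at 91153200 to 91197199. H3K4me3 reads exceeded IgG reads 6.42-fold to 10.0-fold over these 5 runs, around the value of 7.18 over all domains under 50 IgG reads per kb.

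The size of a domain, its end minus its start, had a median of 1799 bp with quartiles of 1199 and 2399 bp. Domains lie on a grid of 200 bp, so that sizes step by that amount, and the most frequent were 1199 bp with 1919 domains, 1399 bp with 1895 and 1599 bp with 1860. Only 5% of the domains exceeded 4199 bp, and 23 exceeded 10 kb. At the lower end, 57 domains consisted of 1 window (199 bp).

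H3K4me3 was densest in domains of intermediate size. In the 8691 domains of 1 to 2 kb the median was 173 H3K4me3 reads per kb and the log2 ratio 3.13. Shorter domains (3279 under 1 kb) had 124 reads per kb and a log2 ratio of 2.54. This class was not uniform. Its 1514 domains of 999 bp had 182 reads per kb and a log2 ratio of 3.16. Domains of 399, 599 and 799 bp had 92.7, 73.5 and 105 reads per kb. In domains of 2 kb or more the median was lower than at 1 to 2 kb, with 135 reads per kb at 2 to 3 kb (4178 domains), 114 at 3 to 5 kb (2187 domains) and 109 at 5 kb or more (423 domains), with log2 ratios of 2.79, 2.54 and 2.403. The median IgG level stayed between 19.2 and 20.02 reads per kb in all 5 classes, and the log2 ratios largely followed H3K4me3. Domains under 1 kb were an exception. They had more H3K4me3 per kb than those of 3 to 5 kb, but a log2 ratio of 2.536 against 2.543. Long domains thus spread more reads over more sequence, with a median of 673 H3K4me3 reads at 5 kb or more against 272 at 1 to 2 kb. Domains under 1 kb also varied most in enrichment, with log2 quartiles of 1.40 and 3.53, and their median IgG count was only 17 reads.

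**Figure D3:**
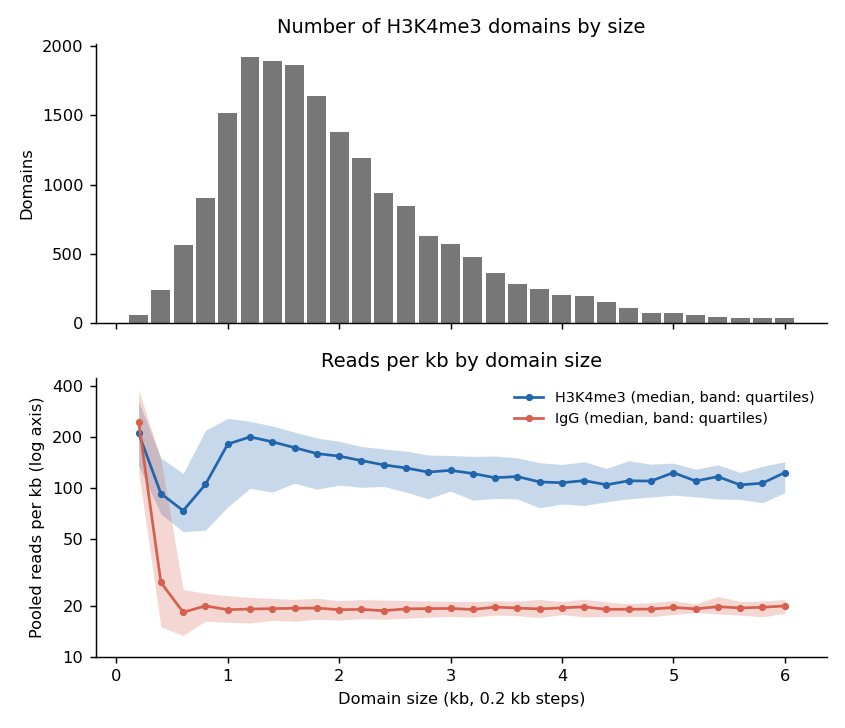
Number of domains (upper y axis) and pooled H3K4me3 and IgG reads per kb (lower y axis, log axis) by domain size in steps of 0.2 kb (x axis), for sizes up to 6 kb. Points are medians and bands the quartiles over domains. Apart from the domains of 1 window, in which both libraries are high, median H3K4me3 peaks near 1.2 kb and is lower in longer domains, while IgG stays near 19 reads per kb in all but the shortest domains.

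Among the shortest and the longest domains, a larger share than in the other size classes held an unusual amount of IgG. Over all domains the IgG level was narrow, with quartiles of 16.5 and 22.0 reads per kb and 90% of the domains between 12.5 and 27.5, while H3K4me3 varied from 35.0 to 278 over the same share of domains. Separate from this body stood 343 domains (1.83%) with at least 50 IgG reads per kb, a limit chosen after the values were seen. They made up 225 of the 3279 domains under 1 kb (6.86%) and 27 of the 423 domains of 5 kb or more (6.38%), against 56 of the 8691 domains of 1 to 2 kb (0.64%). Of the 57 domains of 1 window, 51 belonged to them. They held 19.2% of all IgG reads in domains but 2.87% of the H3K4me3 reads.

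In these IgG-rich domains the reads of both libraries were nearly equal. Their median IgG level of 155 reads per kb was far above that of all domains, while their median H3K4me3 level of 137 reads per kb lay slightly below the 144 of all domains, and H3K4me3 reads amounted to a median of 0.862 per IgG read, with a lowest value of 0.672. Only 6 of the 343 reached a log2 ratio of 1, against 90.2% of all domains. The group was chosen by IgG, which is also the denominator of this ratio, so that low ratios follow in part from the choice. They lay less often at the chromosome ends than domains did as a whole, with 162 (47.2%) in the outer parts. Sparse bins held 108 of them, 6.70% of the domains there, and dense bins 75, or 0.62%. More IgG than H3K4me3 reads were counted in 393 domains in total (2.10%), 304 of them IgG-rich. Scaling by uniquely aligned reads, with its shift of -0.67, places these 393 further below IgG, which holds for that scaling only. Why they were listed, and what sequence they hold, was not tested.

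**Figure D4:**
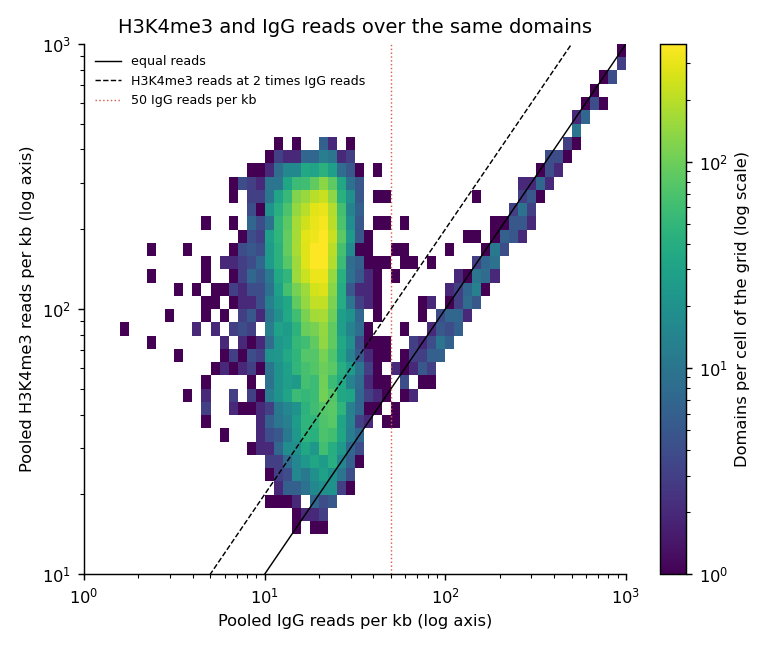
Pooled H3K4me3 reads per kb (y axis) against pooled IgG reads per kb (x axis), both on log axes, over the same 18758 domains, with the number of domains in each cell of the grid as color. Most domains form an upright body around 19.2 IgG reads per kb, and the IgG-rich ones to the right of the dotted line follow the line of equal reads.

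The longest domain of the table was one of these regions. It extended over 39599 bp of chromosome 9 (33411000 to 33450599) and held 32605 H3K4me3 and 35948 IgG reads, or 0.907 H3K4me3 reads per IgG read (95% Clopper-Pearson interval 0.893 to 0.921). It stood in a block of 6 domains between 33376200 and 33486999, in which IgG ranged from 155 to 908 reads per kb and H3K4me3 from 128 to 823. This block alone held 6.70% of all IgG reads in domains. A similar domain of 20999 bp lay on chromosome 2 (19425600 to 19446599), with 18674 H3K4me3 and 20267 IgG reads. The highest level in both libraries was found in a domain of 799 bp on chromosome 1 (66245200 to 66245999), with 902 H3K4me3 and 996 IgG reads per kb. A domain on chromosome 11 (11419400 to 11419799), with 342 H3K4me3 and 377 IgG reads, was also among the 5 highest in both libraries. The fifth place was held on chromosome 9 by 60860600 to 60861199 (456 and 481 reads) for H3K4me3 and by 14470600 to 14470999 (296 and 338 reads) for IgG. Ordered by H3K4me3 reads per kb alone, the 5 strongest domains of the table were therefore regions with even more reads in the IgG library.

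Of the 10 longest domains, 7 were IgG-rich and held more IgG than H3K4me3 reads. Besides the regions above, these were domains on chromosome 11 (55007600 to 55030599, 22999 bp) with 2244 H3K4me3 and 3099 IgG reads, chromosome 1 (87402800 to 87423999, 21199 bp) with 2131 and 3038 reads, chromosome 6 (48625600 to 48639199, 13599 bp) with 1355 and 1680 reads, and chromosome 8 (13961400 to 13974799, 13399 bp) with 2017 and 2667 reads. The last of the 7 was the domain of 12799 bp in the block of chromosome 9 (33451600 to 33464399), with 7164 and 7998 reads. The 3 remaining domains were enriched in H3K4me3 and all lay on chromosome 1. The longest of them (89349600 to 89363399, 13799 bp) held 2358 H3K4me3 and 287 IgG reads, or 8.22 H3K4me3 reads per IgG read (7.27 to 9.32). Those at 92192000 to 92204599 (12599 bp) and 77906600 to 77918999 (12399 bp) had ratios of 6.47 (5.67 to 7.41) and 4.42 (3.86 to 5.07). With 171, 132 and 93.3 H3K4me3 reads per kb, only the first exceeded the median over all domains.

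The longest domain of each chromosome gave the same picture. On chromosomes 1, 2, 6, 8, 9, 10 and 11 it was IgG-rich, and on chromosome 10 (6388600 to 6398999, 10399 bp) its 1224 H3K4me3 and 1220 IgG reads were almost equal. The longest domains of chromosomes 3 (60924400 to 60936399, 11999 bp), 5 (416800 to 425199, 8399 bp), 7 (66806800 to 66816599, 9799 bp) and 12 (66942800 to 66953399, 10599 bp) had ratios of 5.38, 6.88, 4.50 and 3.92. That of chromosome 4 (52355800 to 52365999, 10199 bp) was weaker, with 503 H3K4me3 and 230 IgG reads, or 2.19 H3K4me3 reads per IgG read (1.87 to 2.57).

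Low enrichment thus came in 2 forms. Of the 1829 domains under a log2 ratio of 1, 337 were IgG-rich and the other 1492 had fewer than 50 IgG reads per kb, with a median of 22.8 that lay just above the upper quartile of all domains, and little H3K4me3, with a median of 33.9 reads per kb. Their median size of 1599 bp was close to that of all domains. The 5 lowest ratios among domains with at least 100 reads in both libraries together all belonged to the first form. The lowest was found on chromosome 12 (48181400 to 48185399) with 219 H3K4me3 and 326 IgG reads, or 0.672 (0.563 to 0.7997). It was followed by 87347200 to 87356599 of chromosome 1 (1151 and 1663 reads), 32757400 to 32763799 of chromosome 3 (491 and 706), 14145400 to 14147799 of chromosome 7 (205 and 295) and 28400400 to 28403399 of chromosome 3 (140 and 201).

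The highest log2 ratios among domains with at least 100 reads combined rested on very few IgG reads. A domain of 1799 bp on chromosome 12 (61932200 to 61933999) led with 305 H3K4me3 and 7 IgG reads, or 43.6 H3K4me3 reads per IgG read (20.9 to 109). Those that followed were 3211600 to 3212199 of chromosome 7 with 180 and 4 reads, 51290600 to 51291399 of chromosome 2 with 248 and 6 reads, 57708800 to 57709599 of chromosome 10 with 243 and 6 reads, and 66574800 to 66575999 of chromosome 9 with 103 and 2 reads. Their intervals overlapped, and for the last one it reached from 13.9 to 431, so that their order has no meaning at this depth. The first and the last had H3K4me3 levels of 170 and 85.9 reads per kb, which are ordinary for these domains, and stood out through IgG levels of 3.89 and 1.67 reads per kb. In all, 29 domains held at most 3 IgG reads.

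Among domains with fewer than 50 IgG reads per kb, a group chosen after the values were seen, H3K4me3 was densest on chromosome 6 (44867800 to 44869599, 1799 bp) with 418 reads per kb from 752 H3K4me3 and 37 IgG reads. This domain lay in the densest bin of the table. Almost the same level was reached on chromosome 7 (3922400 to 3923799) with 417, chromosome 3 (63973400 to 63973999) with 416, and chromosome 6 (39386400 to 39388599 and 10509200 to 10509999) with 414 in both. The last of these lay in a sparse bin with 3 domains, 32201 bp after the previous domain and 345001 bp before the next.

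The study's tables give genes to a few H3K9ac domains, and the H3K4me3 domains inside them were looked up to see the state of these genes in untreated seedlings. The H3K9ac domain at the hydroxycinnamoyl CoA quinate transferase (HQT) genes Solyc12g096770, Solyc12g096790 and Solyc12g096800 (chromosome 12, 67741600 to 67780199) held 6 H3K4me3 domains. HQT enzymes make chlorogenic acid, a phenolic compound. From the first to the last, the domains had 115, 158, 58.9, 49.05, 52.9 and 150 H3K4me3 reads per kb. Their log2 ratios were 2.47, 3.16, 1.62, 0.74, 1.10 and 3.24. The 3 domains in the middle of the region were thus far under the median of all domains (144 reads per kb), the second and the last were just above it, and 1 of the 6 stayed under a log2 ratio of 1. The IgG level was highest over the weakest domain, at 29.0 reads per kb.

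At 2 groups of protease inhibitor genes, which encode defense proteins that block the digestive proteases of insects, H3K4me3 was low throughout. The region of Solyc09g084450 to Solyc09g084490 (chromosome 9, 66598000 to 66632599) held 4 domains with 35.0, 36.2, 45.0 and 80.7 H3K4me3 reads per kb. The region of Solyc09g089490 to Solyc09g089540 (chromosome 9, 66670600 to 66703999) held 4 domains with 81.7, 64.3, 37.9 and 46.6. All 8 lay under the lower quartile of all domains (85.4 reads per kb), and the lowest was at the 4.88th percentile. Their IgG levels, 14.0 to 19.2 reads per kb, were not raised. The summed ratios were 3.26 (466 H3K4me3 and 143 IgG reads) and 3.65 (460 and 126 reads). Their log2 ratios ranged from 1.14 to 2.18, so that all 8 passed the fold, as 90.2% of all domains did.

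The region that the study's table labels SlJAZ2 (chromosome 1, 671000 to 690199) overlapped 3 domains, which held 212, 120 and 122 H3K4me3 reads per kb. JAZ proteins are repressors of JA responses. Over the 3 domains, 1771 H3K4me3 and 221 IgG reads gave a ratio of 8.01, above those of the other 3 regions. The first domain (670600 to 674399) was the strongest of all 17 domains in the 4 regions, with a log2 ratio of 3.51, and the second (677000 to 683199) was the longest at 6199 bp. RefSeq's table, made from a different tomato assembly, gives the name JAZ2 to a gene on another chromosome, so that the label is the study's own.

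**Figure D5:**
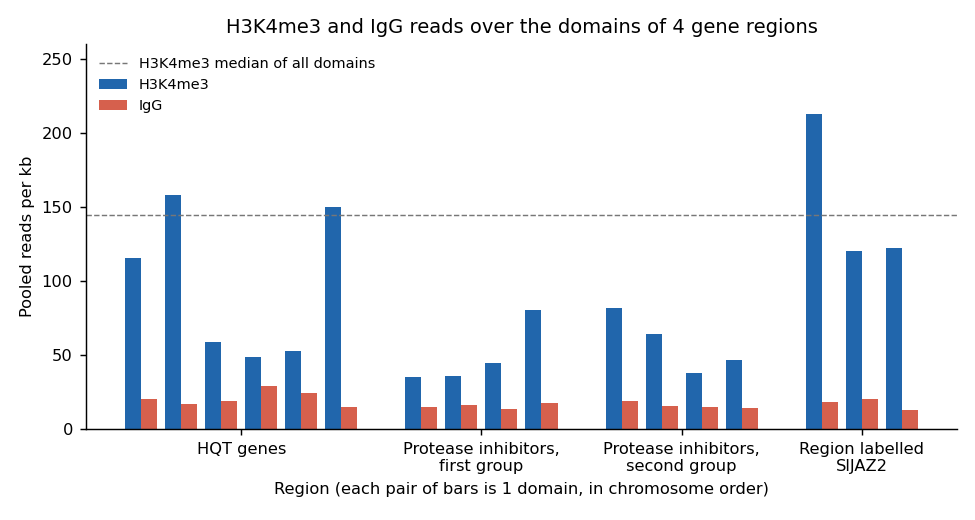
Pooled H3K4me3 and IgG reads per kb (y axis, from 0) over each H3K4me3 domain in 4 regions (x axis, domains in chromosome order). The 8 domains at protease inhibitor genes lie between 35.0 and 81.7 H3K4me3 reads per kb, under the median of all domains (dashed line), and the first domain of the region labelled SlJAZ2 reaches 212.

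H3K9ac, an acetylation of histone H3 that also marks active genes, was listed at most of the H3K4me3 domains. Of the 18758, 15644 (83.4%, Wilson interval 82.9 to 83.9%) overlapped a domain of the tomato H3K9ac table by at least 1 bp, and 82.9% had at least 50% of their length covered. Wilson intervals here again treat domains as independent. That table lists regions in which reads of JA-treated seedlings exceeded those of untreated ones, so that a domain without overlap may still carry H3K9ac. The excess was mostly small. Where H3K9ac domains overlapped, their median was 107 unscaled reads per kb in untreated and 112 in JA-treated seedlings. The overlap to be expected from the length that H3K9ac domains cover was not computed. The share was higher where H3K4me3 enrichment was higher. It was 22.9% under a log2 ratio of 0 (393 domains), 67.5% from 0 to 1, 73.0% from 1 to 2, 85.0% from 2 to 3, 91.1% from 3 to 4 and 91.6% at 4 or more (845 domains). Where an H3K9ac domain was present, its pooled reads in untreated seedlings followed the same order, from a median of 80.7 per kb under 0 to 121 at 4 or more. Only 49 of the 343 IgG-rich domains (14.3%, 11.0 to 18.4%) overlapped an H3K9ac domain, against 84.7% of the others.

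The overlap depended less on place and size. It was 78.3% in sparse, 79.8% in intermediate and 85.5% in dense bins, and between 80.7% on chromosome 11 and 85.3% on chromosome 3. By size it was 71.8% under 1 kb and between 84.8% and 88.0% in the longer classes. Across bins, the H3K9ac level of untreated seedlings went in the opposite direction to the overlap, with medians of 122 reads per kb in sparse and 105 in dense bins. Across sizes it did not, with a median of 96.7 under 1 kb and medians between 108 and 116 in the longer classes.

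The hemp table, made by the same steps from other libraries and another assembly, is set beside these values without a comparison of levels, as depth differed. It lists 16331 domains with a median size of 1999 bp, a median gap of 14201 bp, 170 H3K4me3 and 16.4 IgG reads per kb. Hemp had 28 domains (0.17%) with at least 50 IgG reads per kb, and none above 108. This limit was set on unscaled tomato counts, so that the share cannot be compared with that of tomato.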

How the data were processed

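Reads had been mapped by the authors to the Micro-Tom assembly SLM_r2.0.pmol using Bowtie2 (version 2.4.1). The 3 replicates per group were then merged, and epic2 (version 0.0.52) compared the merged H3K4me3 with the merged IgG library. The submitters' processing notes list that version under SICER. Window size, duplicate handling and mapping quality filter are not given in the sources used here. The deposited counts are whole, unnormalized reads of each merged library in a domain. The deposited p-value and FDR are those of the caller, and the highest FDR was 0.0499. The deposited log2 fold change and score are the authors' own comparison and were not used.

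From the counts, reads per kb, log2 ratios with a pseudocount of 1, sizes, gaps, relative positions, bins of 1 Mb and overlaps were computed with Python 3.11.15, pandas 2.3.3, NumPy 2.4.6 and SciPy 1.17.1, and drawn with matplotlib 3.10.9. The functions were tested on simulated domains. Relative positions run from the first to the last listed domain, since chromosome lengths are not in the table. Named domains were the 10 longest, the 5 highest and 5 lowest log2 ratios among those with at least 100 reads, the 5 with the most H3K4me3 and the 5 with the most IgG reads per kb, the longest of each chromosome, the 5 longest gaps, the 5 densest bins and the domains at genes given by the study's tables. Members and lists were chosen with earlier results of these data known. Intervals cover counting error only, since replicates were merged, and Wilson intervals of shares treat domains as independent. Reads carry no molecular identifiers, so that duplicates, if kept, would count as separate reads and make the intervals of ratios too narrow.

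Alternatives concerned the pseudocount, scaling, a minimum of 10 IgG reads, an FDR of at most 0.001, joining, bin size, the outer share and the run gap. Those without IgG-rich domains or without chromosome 2 were chosen after seeing the data.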

Additional observations from a re-analysis of the deposited data

How the results depend on the processing

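No paired analysis was possible because the replicates were merged before deposit, and for the same reason no replicate could be left out. Of 36 alternatives in all, those of the enrichment differences between dense and sparse bins and between long and short domains kept their sign. The share of domains in the outer parts was 56.9% with 10% and 89.3% with 30% at each end, and 69.5% and 84.9% in the lowest and highest single chromosome. In 2 Mb bins 63.3% lay in dense bins. The median spacing was 11200 bp between midpoints and 8001 bp over gaps of at most 100 kb. Runs held 29.4% of the domains with gaps of up to 3 kb and 72.3% with up to 10 kb. With at least 10 IgG reads, the median of domains under 1 kb was 136 H3K4me3 reads per kb. From summed reads, the log2 difference between dense and sparse bins was 1.11, and 0.039 without IgG-rich domains, and that between domains of 5 kb or more and under 1 kb was -1.31, and -0.55 without them, against -0.13 between their medians. The IgG-rich domains thus carry most of the summed contrasts. Scaled by uniquely aligned reads, 15298 domains reached a log2 ratio of 1. Without replicates, no difference here can be set against biological spread, and few IgG reads limit the precision of ratios in short domains.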

Other observations

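The last listed H3K4me3 domain of a chromosome and the last listed H3K9ac domain of the same chromosome ended close together, at a median distance of 1800 bp and at most 24600 bp over the 12 chromosomes, although the tables come from different libraries. On chromosome 3 both ended at 67640999. On several chromosomes this end fell into dense sequence. The last complete 1 Mb bin before the end held 112 domains on chromosome 1, 110 on chromosome 10, 108 on chromosome 3 and 103 on chromosome 6, but 31 on chromosome 11. Whether the assembly continues past these ends, and was searched there, was not tested. The starts were less alike, with a distance of up to 165600 bp, on chromosome 2.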
